A study of Homo sapiens with 6 samples.

Results

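MicroRNA host genes are long transcripts, mostly non-coding, that carry 1 or more microRNA precursors in an exon or an intron, and the gene names used here mark them by the ending HG. All rows of the deposited gene table whose name had the form MIR, a number or family name, and HG were taken, which gave 84 host genes of 61267 genes. The cells were THP-1, a human monocytic leukemia line, made adherent with 100 ng/ml of the phorbol ester PMA for 48 h. Bulk RNA-seq was run on 3 libraries labelled KD and 3 labelled NC. The labels give neither letter pair a meaning and name no target gene, whereas the title of the series names METTL1, so the groups are called here by their labels. By the labels, all 6 libraries came from the same line after the same PMA treatment. The labels do not say whether the replicates are separate cultures. The p-values here therefore speak only of the spread among these libraries, and that spread may be technical.

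A primary microRNA transcript is cut in the nucleus by DROSHA and DGCR8, its hairpin is exported by XPO5 and trimmed by DICER1, and the mature strand then guides an Argonaute protein to messages that pair with its seed. The level of a host transcript is therefore upstream of, and not a measure of, the mature microRNA, which these libraries did not measure. In monocytes and macrophages the hosts of miR-155 and miR-146a are known for their induction by inflammatory signals, the host of miR-142 for its restriction to blood cells, and the miR-17 cluster for its link to proliferation.

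Total counts were 37628972 to 42970216 per library. The level of METTL1, a tRNA methyltransferase, was 567, 528 and 524 counts in the KD libraries and 596, 653 and 642 counts in the NC libraries. The log2 fold change was -0.10 (SE 0.076, edgeR adjusted p = 0.216), and the CPM values of the groups overlapped. Its partner subunit WDR4 was lower in KD, with 168, 219 and 176 counts in KD and 314, 283 and 337 counts in NC (log2 fold change -0.61, SE 0.12, edgeR adjusted p = 5.04e-05). The libraries labelled NC also held RNA that those labelled KD almost lacked, and whether NC is RNA of THP-1 cells alone cannot be told from the labels. A list of 16 epithelial and neural genes summed to 32.5 to 36.6 CPM of library size in KD and 3230 to 3580 CPM in NC, and 16 of 16 were lower in KD. LIN28B, PAX3, POU3F3, ID4 and GALNT13 of that list were at 0 in every KD library. IRS4, an adaptor of insulin signalling, had 6, 4 and 10 counts in KD and 6834, 6842 and 7417 counts in NC. A list of 36 leukocyte-restricted genes summed to 8450 to 8570 CPM of library size in KD and 3790 to 3890 CPM in NC, and 36 of 36 were higher in KD, led by ARHGDIB (log2 fold change 1.78), LCP2 (1.53) and LST1 (1.61). These lists separate KD from NC along with every comparison given here, and their part in the results was not tested. In bulk libraries, fewer cells of a type and less RNA per cell cannot be told apart.

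For that reason changes are given with a second scale beside the first where the sign or the call differs, and for the hosts the results turn on. The first scale is edgeR with TMM scaling over all genes, on which the median log2 fold change of all 21905 tested genes was -0.05. The second, called the leukocyte scale, sets the library sizes by the 36 leukocyte-restricted genes alone and moves that median to -1.35. Calls on the leukocyte scale were tested against 0, whereas the place of a gene among all genes is read against -1.35. The leukocyte scale shifts most genes by a nearly equal amount, such as MIR155HG from 0.99 to -0.31 and MIR17HG from -2.30 to -3.60. Standing above or below its median therefore repeats the TMM value and is no further result. With library sizes alone the median was -0.23.

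Of the 84 host genes, 82 had at least 1 annotated microRNA gene overlapping their span on the same strand, 133 in all, and 197 mature strands were matched to RefSeq on GRCh38.p14. The mature sequences of the hosts that the results turn on are shown 5′ to 3′, with the seed, bases 2 to 8, in capitals. The hosts linked to inflammation and myeloid cells carry these strands:
miR-155-5p in MIR155HG: uUAAUGCUaaucgugauagggguu
miR-146a-5p in MIR3142HG: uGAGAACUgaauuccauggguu
miR-22-3p in MIR22HG: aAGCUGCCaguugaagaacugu
miR-142-3p in MIR142HG: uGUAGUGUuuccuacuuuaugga
miR-27a-3p in MIR23AHG: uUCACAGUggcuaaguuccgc
miR-222-3p in MIR222HG: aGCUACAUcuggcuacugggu
miR-221-3p in MIR222HG: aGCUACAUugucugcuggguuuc

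The host genes of 7 loci carry a strand with the let-7 seed GAGGUAG, and they did not move together, so their strands are set side by side, with those of the neighbours that ride in MIR100HG and MIR99AHG:
let-7a-5p in MIR100HG, MIRLET7A1HG and MIRLET7BHG: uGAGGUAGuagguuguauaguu
let-7b-5p in MIRLET7BHG: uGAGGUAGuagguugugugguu
let-7i-5p in MIRLET7IHG: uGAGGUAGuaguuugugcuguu
let-7c-5p in MIR99AHG: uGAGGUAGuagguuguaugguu
miR-4458 in MIR4458HG: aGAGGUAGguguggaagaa
miR-4500 in MIR4500HG: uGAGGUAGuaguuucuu
miR-100-5p in MIR100HG: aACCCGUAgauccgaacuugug
miR-99a-5p in MIR99AHG: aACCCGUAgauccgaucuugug
miR-125b-5p in both MIR100HG and MIR99AHG: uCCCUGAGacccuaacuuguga

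The proliferation-linked strands fall into shared seed groups too. MIR17HG and the protein-coding host MCM7 share the seeds AAAGUGC and AUUGCAC, and AUUGCAC also occurs in miR-367-3p of MIR302CHG. MIR497HG shares AGCAGCA with the host genes DLEU2 and SMC4 and with miR-424-5p. The gene of miR-424 overlaps the edge of MIR503HG, but the strand (chrX:134546680-134546701) lies outside its span, which ends at 134546642:
miR-17-5p in MIR17HG: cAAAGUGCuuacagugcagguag
miR-20a-5p in MIR17HG: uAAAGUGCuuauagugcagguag
miR-106b-5p in MCM7: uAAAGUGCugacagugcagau
miR-92a-3p in MIR17HG: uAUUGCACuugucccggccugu
miR-25-3p in MCM7: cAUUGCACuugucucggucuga
miR-195-5p in MIR497HG: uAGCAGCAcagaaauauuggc
miR-424-5p in MIR503HG: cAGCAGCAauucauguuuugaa
miR-16-5p in DLEU2 and SMC4: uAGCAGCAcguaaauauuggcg

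A total of 73 host genes had a count in some library and 39 passed the filter on low counts. Over those 39, with an adjusted p under 0.05 taken as a call, 15 were higher in KD, 17 were lower and 7 were not called. The 32 calls are 82.1% of the tested host genes, beside 76.5% of all tested genes, of which 36.2% were higher and 40.3% lower. In 31 of the 39 (79.5%) the CPM values of KD and NC did not overlap, beside 78.0% of all tested genes. These shares lie near those of all genes and are no result about host genes. The median log2 fold change was -0.11, and changes of at least 2-fold numbered 8 higher and 12 lower. On the leukocyte scale 1 host gene was higher and 31 were lower with a median of -1.41, beside 2.35% higher and 85.8% lower of all tested genes. The 31 include the 17 called lower with TMM and the 7 not called.

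**Figure D1:**
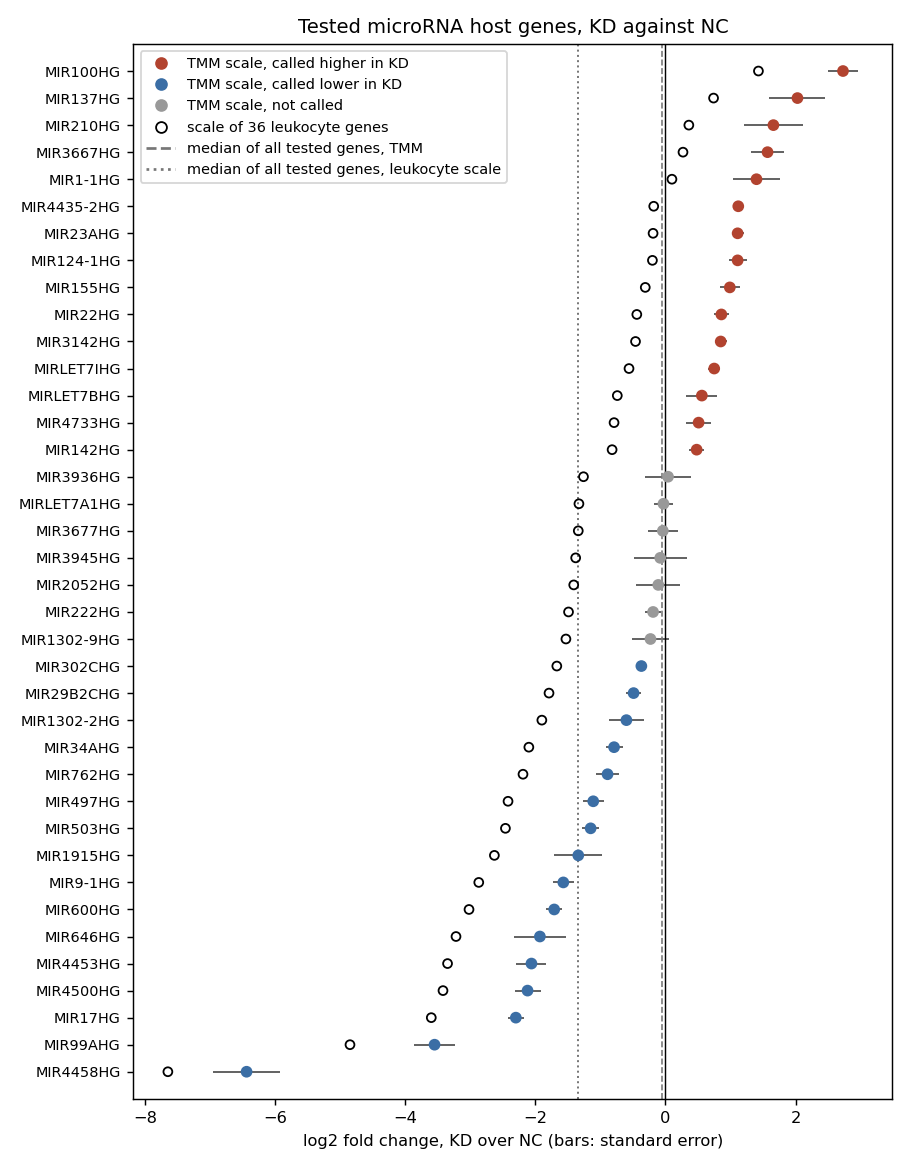
Log2 fold change, KD over NC, of the tested host genes with a count in KD, with the standard error as bars. Filled points use TMM scaling and open points the leukocyte scale; MIR100HG is the top row on both (2.73 and 1.43) and MIR4458HG the bottom row, and 10 hosts called higher on the TMM scale have open points below 0. MIR924HG, with no KD count, is not drawn.

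Of the 11 host genes listed for inflammation and myeloid cells, 8 were tested, 6 were higher in KD, 1 was lower and 1 was not called, with a median log2 fold change of 0.85, beside 36.2% higher and 40.3% lower of all tested genes. None of the 8 was higher and 6 were lower on the leukocyte scale, with a median of -0.45, beside 85.8% lower of all tested genes. MIR155HG (chr21:25561810-25575168, plus strand, 4 merged exons), the source of miR-155, had 191, 229 and 207 counts in KD and 94, 135 and 114 counts in NC. The KD values all lay above the NC values, at 5.31 ± 0.498 CPM in KD and 2.68 ± 0.549 CPM in NC (SD, n = 3 each). The log2 fold change was 0.99 (SE 0.15, edgeR adjusted p = 1.59e-06), and the value was below 0 at -0.31 on the leukocyte scale, above that scale's median. MIR3142HG (chr5:160438594-160487426, plus strand, 3 merged exons) carries miR-146a, which represses the signalling proteins IRAK1 and TRAF6. It had 493, 489 and 570 counts in KD and 278, 320 and 341 counts in NC, again with no overlap. It was higher by 0.85 (SE 0.093, edgeR adjusted p = 1.06e-08) and stood at -0.46 on the leukocyte scale. Apart from the microRNA genes inside them, neither of these hosts shares an exon base with another gene of the table.

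MIR4435-2HG held more counts than any other host in each KD library, whereas MIR302CHG did so in each NC library. It is known in mouse as a regulator of myeloid cell survival through its neighbour Bcl2l11. MIR4435-2HG had 3111, 3144 and 2832 counts in KD and 1499, 1441 and 1592 counts in NC. It was higher in KD (log2 fold change 1.12, SE 0.049, edgeR adjusted p = 1.40e-16) and stood at -0.18 on the leukocyte scale. Its share of all host gene counts was 29.3% to 32.0% in KD and 15.1% to 15.3% in NC. CYTOR, a near-identical paralog that can share reads with it, was higher by 1.09 (SE 0.076), so the split between the pair is uncertain. BCL2L11 itself had 295, 321 and 296 counts in KD and 334, 311 and 287 counts in NC and was not called (log2 fold change 0.09, edgeR adjusted p = 0.455).

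MIR23AHG carries miR-23a, miR-27a and miR-24-2 and had 511, 588 and 573 counts in KD and 251, 292 and 297 counts in NC. It was higher by 1.11 (SE 0.092, edgeR adjusted p = 5.88e-11) and stood at -0.19 on the leukocyte scale. MIR22HG, the host of miR-22, had 376, 319 and 332 counts in KD and 211, 204 and 198 counts in NC, and its groups did not overlap. This was a rise of 0.86 on the log2 scale (SE 0.11, edgeR adjusted p = 9.91e-08), with -0.44 on the leukocyte scale. MIR142HG, the host of the blood cell microRNA miR-142, had 295, 325 and 345 counts in KD and 276, 255 and 219 counts in NC. By the test it was higher, with a log2 fold change of 0.48 (SE 0.11, edgeR adjusted p = 5.60e-04), with -0.82 on the leukocyte scale. The gap between its groups was narrow, with the lowest KD library at 7.50 CPM and the highest NC library at 6.55 CPM.

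The 2 tested hosts of this group on the X chromosome did not follow. MIR222HG, the host of miR-221 and miR-222, which repress the cell cycle inhibitor CDKN1B, had 207, 268 and 304 counts in KD and 294, 332 and 340 counts in NC. Its groups overlapped, with KD replicate 1 as the lowest library, and it was not called (log2 fold change -0.19, SE 0.12, edgeR adjusted p = 0.150). The call depends on KD replicate 3, without which the log2 fold change was -0.31 (edgeR adjusted p = 0.0294), and with library sizes alone it was -0.38 (edgeR adjusted p = 0.010). MIR503HG is the host of miR-503. The gene of miR-424, a microRNA known from monocyte differentiation, only overlaps the edge of MIR503HG, and its mature strands lie outside that span (chrX:134543119-134546642). MIR503HG had 113, 138 and 177 counts in KD and 318, 339 and 380 counts in NC. It was lower in KD by the test (log2 fold change -1.15, SE 0.13, edgeR adjusted p = 1.85e-08), and stood at -2.46 on the leukocyte scale, below that scale's median. The remaining 3 hosts of the list, MIR223HG, MIR181A1HG and MIR181A2HG, held too few counts to test, and they are named here after their values were seen. MIR223HG, whose miR-223 is a hallmark of granulocytes and monocytes, had 2, 6 and 8 counts in KD and 4, 6 and 2 counts in NC.

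**Figure D2:**
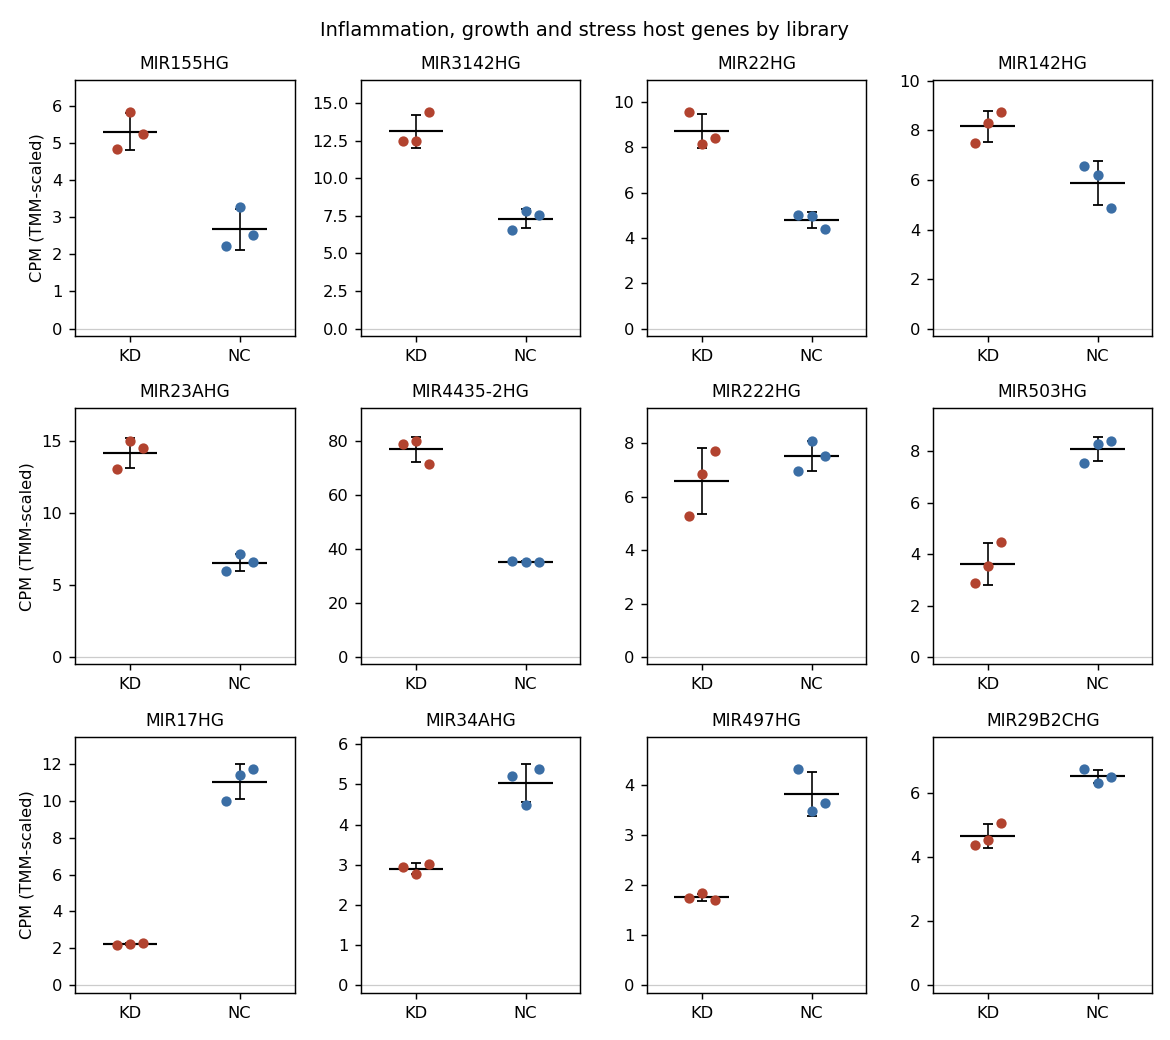
TMM-scaled CPM by library for 12 hosts of the inflammation, growth and stress lists. Points are libraries, the horizontal line is the mean and the bars are 1 SD (n = 3 each); the groups overlap only in MIR222HG, and the means of MIR17HG are 2.24 CPM in KD and 11.0 CPM in NC. On the leukocyte scale MIR155HG, MIR3142HG, MIR22HG, MIR142HG, MIR23AHG and MIR4435-2HG are below 0 but above its median of -1.35.

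The promoters of the first pair were read for known letters, since both hosts are called higher on the TMM scale. They are shown from RefSeq on GRCh38.p14, from 250 bases before to 50 bases after the annotated start, 5′ to 3′ on the plus strand, with the match in capitals. The RefSeq start can differ from the start of the counted gene. Both stretches lie inside the counted spans, which begin at 25561810 for MIR155HG and 160438594 for MIR3142HG. The stretch searched for MIR4435-2HG (chr2:111495112-111495411) also lies inside its span, which ends at 111523376 on the minus strand. In MIR155HG (chr21:25561895-25562194) the capitals mark the AP-1 letters TGANTCA, and in MIR3142HG (chr5:160468001-160468300) the kappaB letters, GGGA and CC with 4 bases between:
MIR155HG: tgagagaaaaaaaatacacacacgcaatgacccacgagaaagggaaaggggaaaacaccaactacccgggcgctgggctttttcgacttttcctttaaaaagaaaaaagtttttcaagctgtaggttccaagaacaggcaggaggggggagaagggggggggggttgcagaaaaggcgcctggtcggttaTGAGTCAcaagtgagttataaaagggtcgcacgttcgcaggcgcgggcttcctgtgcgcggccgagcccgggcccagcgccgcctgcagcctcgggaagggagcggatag
MIR3142HG: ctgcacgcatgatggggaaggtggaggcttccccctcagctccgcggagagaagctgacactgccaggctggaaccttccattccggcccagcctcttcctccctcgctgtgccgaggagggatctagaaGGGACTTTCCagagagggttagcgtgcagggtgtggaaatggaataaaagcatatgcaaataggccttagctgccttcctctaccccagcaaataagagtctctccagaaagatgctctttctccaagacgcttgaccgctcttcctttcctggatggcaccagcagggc
Searched on both strands, the kappaB letters occurred in 9 of the 35 tested hosts with a promoter sequence and in 25.1% of 27305 promoters. On the TMM scale MIR3142HG and MIR1-1HG of these 9 were called higher, and MIR34AHG, MIR29B2CHG, MIR1915HG and MIR17HG lower. The others, MIR222HG, MIR1302-9HG and MIR3677HG, were not called. The AP-1 letters occurred in 2 of the 35, MIR155HG and MIR4435-2HG, and in 7.76% of promoters. The E-box letters CACGTG occurred in 1 of the 35, MIR142HG, and in 7.43% of promoters. A match describes letters and no binding.

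Of the 8 hosts listed for growth and stress, 5 were tested, 4 were lower in KD and 1 was higher, with a median log2 fold change of -0.79, beside 40.3% lower and 36.2% higher of all tested genes. None was higher and 4 were lower on the leukocyte scale, beside 85.8% lower of all tested genes. MIR17HG (chr13:91347686-91397592, plus strand) carries the miR-17 to miR-92a cluster, a target of MYC. It had 86, 88 and 90 counts in KD and 420, 467 and 527 counts in NC. The KD libraries were close to each other and all far below NC, a log2 fold change of -2.30 (SE 0.12, edgeR adjusted p = 3.26e-15) and -3.60 on the leukocyte scale. MCM7, a replication helicase subunit whose intron carries the related miR-106b, miR-93 and miR-25, had 2000, 1869 and 1960 counts in KD and 8401, 8095 and 9218 counts in NC, and was lower by the test (log2 fold change -2.02, SE 0.042, edgeR adjusted p = 1.08e-22).

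MIR34AHG, the host of miR-34a, a microRNA linked to growth arrest, had 116, 108 and 119 counts in KD and 220, 184 and 243 counts in NC. It was lower in KD (log2 fold change -0.79, SE 0.13, edgeR adjusted p = 9.00e-06). MIR497HG, which carries miR-497 and miR-195, had 69, 72 and 67 counts in KD and 182, 143 and 165 counts in NC. It was lower in KD (log2 fold change -1.11, SE 0.16, edgeR adjusted p = 9.86e-07), but 38.2% of its exon bases lie opposite C17orf49, which moved by -1.01. MIR29B2CHG, the host of miR-29b-2 and miR-29c, which repress collagen messages, had 172, 177 and 200 counts in KD and 284, 259 and 293 counts in NC. It was lower in KD (log2 fold change -0.49, SE 0.11, edgeR adjusted p = 4.32e-04). On the leukocyte scale MIR34AHG stood at -2.10, MIR497HG at -2.42 and MIR29B2CHG at -1.79, each below that scale's median of -1.35. MIR210HG, the host of the hypoxia-linked miR-210, was the exception, with 18, 20 and 32 counts in KD and 4, 6 and 14 counts in NC. It was higher in KD (log2 fold change 1.66, SE 0.45, edgeR adjusted p = 0.00206), with 0.36 on the leukocyte scale (edgeR adjusted p = 0.461). Such small counts stand for fewer fragments than they number, since 67.8% to 70.3% of the counts from 1 to 20 in a library were even, and MIR210HG was too low to test once counts were divided by 2.

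The hosts that share the let-7 seed split 3 ways, with 3 higher in KD, 3 lower and 1 not called. Of all tested genes, 36.2% were higher and 40.3% lower. MIR100HG (chr11:122028325-122556721, minus strand), the host of miR-100, let-7a-2 and miR-125b-1, had 140, 122 and 107 counts in KD and 24, 14 and 22 counts in NC. It had the highest log2 fold change of the tested hosts, 2.73 (SE 0.23, edgeR adjusted p = 7.36e-11). On the leukocyte scale it was the only tested host called higher, at 1.43 (edgeR adjusted p = 5.03e-06). MIR99AHG (chr21:15928296-16646364, plus strand), the host of the paralogous cluster of miR-99a, let-7c and miR-125b-2, moved the opposite way. It had 4, 14 and 5 counts in KD and 109, 84 and 105 counts in NC (log2 fold change -3.55, SE 0.32, edgeR adjusted p = 3.20e-10), and -4.85 on the leukocyte scale. The opposite directions of this pair held on each scale and without each library in turn, where MIR100HG and MIR99AHG kept their calls in 6 of 6 fits.

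MIRLET7IHG, the host of let-7i, had 517, 558 and 455 counts in KD and 331, 327 and 332 counts in NC. The host was higher by 0.75 (SE 0.092, edgeR adjusted p = 7.12e-08) and stood at -0.56 on the leukocyte scale. MIRLET7BHG, the host of let-7a-3 and let-7b, had 51, 70 and 56 counts in KD and 41, 33 and 57 counts in NC. It was higher by 0.56 (SE 0.24, edgeR adjusted p = 0.0376) but stood at -0.74 on the leukocyte scale. That call was lost without KD replicate 2 (0.42), NC replicate 1 (0.52) or NC replicate 2 (0.41). MIRLET7A1HG, the host of let-7a-1, let-7f-1 and let-7d, had 133, 118 and 134 counts in KD and 128, 122 and 179 counts in NC and was not called (log2 fold change -0.03, SE 0.15, edgeR adjusted p = 0.859). MIR4500HG had 23, 26 and 32 counts in KD and 127, 122 and 134 counts in NC, and was lower by the test (log2 fold change -2.12, SE 0.20, edgeR adjusted p = 9.73e-10). MIR4458HG had 2, 0 and 0 counts in KD and 69, 66 and 88 counts in NC (edgeR adjusted p = 3.52e-11). The count ratio was 102.0-fold lower in KD, with a 95% exact interval of 28.0 to 851.0 for counting error only. That interval takes each count as a separate fragment, and it would be wider if counts stand for fewer fragments than they number.

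**Figure D3:**
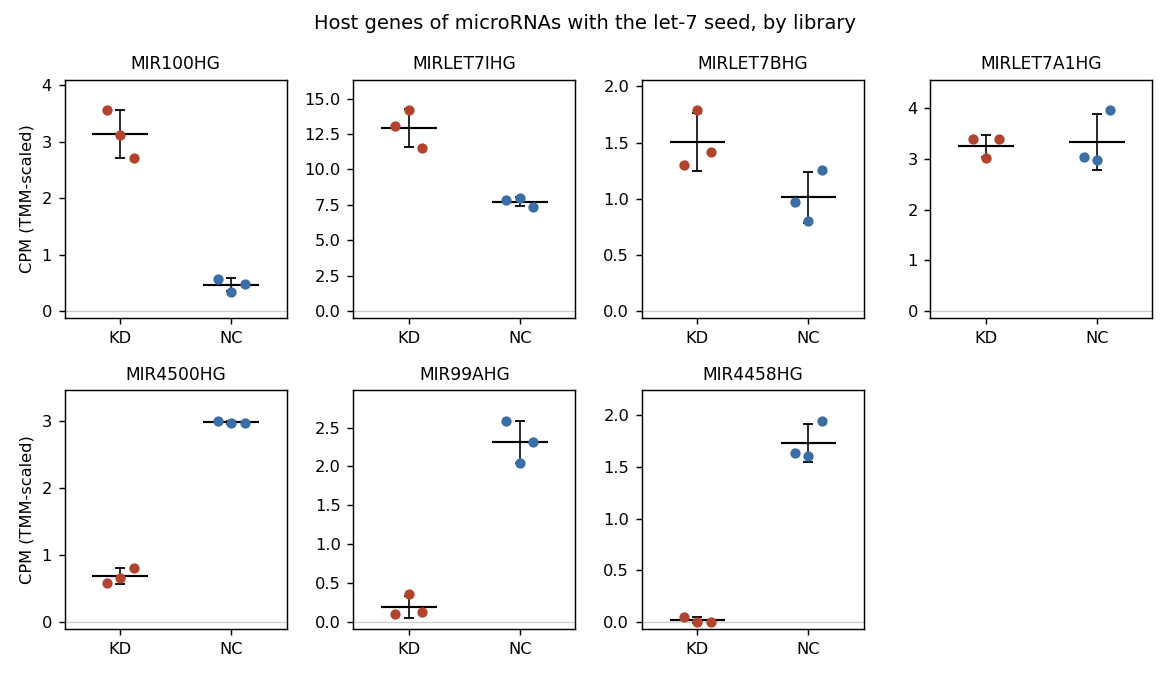
TMM-scaled CPM by library for the 7 hosts of microRNAs with the let-7 seed. Points are libraries, lines are means and bars are 1 SD (n = 3 each); MIR100HG averages 3.13 CPM in KD and 0.466 CPM in NC, MIR99AHG 0.195 CPM in KD and 2.32 CPM in NC. MIRLET7IHG and MIRLET7BHG, higher in KD here, are below 0 on the leukocyte scale but above its median of -1.35.

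Of the 13 hosts listed as embryonic, neural, epithelial or muscle, 5 were tested, 3 were higher in KD and 2 were lower. The shares over all tested genes were 36.2% higher and 40.3% lower. MIR302CHG, the host of the miR-302 and miR-367 cluster of pluripotent cells, had 2137, 2015 and 2036 counts in KD and 2951, 2611 and 3114 counts in NC. It was lower in KD (log2 fold change -0.37, SE 0.047, edgeR adjusted p = 1.55e-07), and -1.67 on the leukocyte scale. However, 56.7% of its exon bases lie opposite exons of LARP7, a protein of the 7SK RNA particle, which had 3107, 2918 and 2926 counts in KD and 4234, 3852 and 4695 counts in NC and a log2 fold change of -0.39. Whether reads were counted by strand is not stated, so reads of the pair cannot be told apart. No nested miR-302 or miR-367 gene passed the filter.

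MIR9-1HG, a host of the neural miR-9, had 50, 83 and 74 counts in KD and 200, 219 and 252 counts in NC, and was lower in KD (log2 fold change -1.57, SE 0.16, edgeR adjusted p = 4.05e-09). MIR124-1HG, a host of the neural miR-124, had 257, 223 and 210 counts in KD and 124, 118 and 106 counts in NC. It was higher by 1.11 (SE 0.14, edgeR adjusted p = 7.89e-08) but stood at -0.20 on the leukocyte scale. MIR137HG, the host of miR-137, had 28, 25 and 46 counts in KD and 8, 14 and 4 counts in NC, higher by the test (log2 fold change 2.03, SE 0.43, edgeR adjusted p = 1.54e-04). It shares 5.1% of its exon bases with DPYD on the same strand, which was higher by 1.61. MIR1-1HG, which carries miR-1-1 and miR-133a-2 of muscle, had 37, 42 and 43 counts in KD and 28, 8 and 14 counts in NC, with NC replicate 1 nearest to KD. It was higher by the test (log2 fold change 1.40, SE 0.36, edgeR adjusted p = 0.00109). On the leukocyte scale neither MIR137HG (0.74, edgeR adjusted p = 0.117) nor MIR1-1HG (0.10, edgeR adjusted p = 0.799) was called.

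Among the 17 tested hosts outside these lists and the let-7 list, 9 were lower in KD, 3 were higher and 5 were not called. The shares over all tested genes were 40.3% lower and 36.2% higher. The median log2 fold change of these 17 hosts was -0.60. MIRLET7IHG, MIR4500HG and MIR4458HG, described above, are among them. MIR924HG (chr18:39206917-39800322, minus strand) was at 0 in every KD library and had 282, 300 and 345 counts in NC. It was lower by the test (edgeR adjusted p = 4.75e-17). With 3 counts over the group as the floor and each count taken as a separate fragment, it was at least 283-fold lower in KD. That bound covers counting error only, and it would be lower if counts stand for fewer fragments than they number. MIR600HG had 93, 92 and 84 counts in KD and 321, 313 and 325 counts in NC and was lower by the test (log2 fold change -1.71, SE 0.12, edgeR adjusted p = 4.13e-12). Its exons share 4.2% of their bases with STRBP on the same strand, which was lower as well (-1.57). MIR4453HG had 26, 20 and 44 counts in KD and 114, 142 and 152 counts in NC and was lower by the test (log2 fold change -2.06, SE 0.23, edgeR adjusted p = 1.27e-08). MIR762HG had 64, 72 and 81 counts in KD and 143, 165 and 127 counts in NC, lower by the test (log2 fold change -0.89, SE 0.17, edgeR adjusted p = 6.94e-05).

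The other hosts without a listed role had fewer than 100 counts on average in both groups. MIR646HG had 6, 6 and 9 counts in KD and 25, 31 and 32 counts in NC (log2 fold change -1.93), and MIR1915HG had 14, 12 and 8 counts in KD and 36, 28 and 30 counts in NC (log2 fold change -1.34). Both were lower in KD, with no overlap between groups. MIR3667HG had 73, 68 and 65 counts in KD and 33, 25 and 17 counts in NC, and was higher by the test (log2 fold change 1.57, SE 0.26, edgeR adjusted p = 7.88e-06), though not on the leukocyte scale (0.27, edgeR adjusted p = 0.345). MIR4733HG had 80, 80 and 94 counts in KD and 58, 68 and 68 counts in NC, and was higher by 0.51 (edgeR adjusted p = 0.0173) with -0.79 on the leukocyte scale. That call was lost without KD replicate 3 or NC replicate 1 (0.44 in each). MIR1302-2HG had 32, 22 and 43 counts in KD and 58, 44 and 58 counts in NC. It passed the test although its groups overlapped in CPM (log2 fold change -0.60, edgeR adjusted p = 0.0446), and it lost the call in 4 of 6 fits that left out a library, down to -0.38 without KD replicate 2. The same happened without KD replicate 1, NC replicate 1 or NC replicate 3. MIR1302-2HG and MIR1302-9HG lie in copies of a chromosome end that are near-identical, so their reads are uncertain.

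The 5 hosts of this group that were not called held small counts in both groups, and their groups overlapped. MIR1302-9HG had 43, 25 and 23 counts in KD and 42, 36 and 38 counts in NC, and MIR2052HG had 28, 18 and 33 counts in KD and 34, 18 and 41 counts in NC. MIR3677HG had 52, 55 and 41 counts in KD and 61, 47 and 57 counts in NC. MIR3945HG had 12, 18 and 18 counts in KD and 27, 18 and 10 counts in NC, and MIR3936HG had 28, 23 and 26 counts in KD and 38, 29 and 14 counts in NC. Their log2 fold changes lay between -0.23 and 0.04, with standard errors of 0.23 to 0.41.

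Levels can be compared between hosts only per length of exon. Per kilobase of exon, MIR302CHG had the highest level of the tested hosts, 22.5 ± 0.697 CPM per kb in KD and 29.0 ± 1.45 CPM per kb in NC (SD, n = 3 each), but it shares most of its exon bases with LARP7. In KD it was followed by MIR3142HG at 5.53 ± 0.471, MIR142HG at 4.97 ± 0.383 and MIR4733HG at 4.37 ± 0.404 CPM per kb, neighbours whose libraries overlapped. MIR4733HG shares 29.1% of its exon bases with NF1 on the opposite strand, which was higher by 0.85 on the TMM scale and stood at -0.46 on the leukocyte scale. MIR155HG at 2.99 ± 0.281 and MIR22HG at 2.80 ± 0.242 CPM per kb came next and overlapped each other. In NC the second place was held by MIR142HG at 3.57 ± 0.548 CPM per kb, whose libraries overlapped those of MIR3142HG at 3.08 ± 0.269 and MIR4733HG at 3.08 ± 0.288 CPM per kb. The median over the 39 tested hosts was 0.381 CPM per kb in KD and 0.578 CPM per kb in NC.

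Overlap with other genes bears on many hosts. Of the 39 tested hosts, 25 share exon bases with another gene of the table and 14 share none. MicroRNA genes inside a host were left out of these counts. The 14 that share none gave 7 higher, 5 lower and 2 not called, and the 25 that share some gave 8 higher, 12 lower and 5 not called, beside 36.2% higher and 40.3% lower of all tested genes. For 19 hosts an overlapping gene was itself tested, and in 17 of these the log2 fold changes had the same sign. Signs were compared whatever the size or call, and some overlapping genes changed little, such as BCL2L11 (0.09), LNCTAM34A (-0.12) and CD46 (-0.13). The share of equal signs among genes that do not overlap was not tested. MIR23AHG shares 12.1% of its exon bases with ZSWIM4 on the opposite strand, and ZSWIM4 was higher by 1.06. MIR17HG shares 20.5% with ENSG00000292285 on the opposite strand, which was lower (-2.06). The exceptions in sign were MIR3936HG and MIRLET7A1HG, neither of them called. MIR4435-2HG overlaps BCL2L11 over 2.1% of its exon bases, and BCL2L11 held fewer counts than it in every library.

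The microRNA genes themselves are rows of the table, and 12 of those inside tested hosts passed the filter. Of these, 4 were higher in KD, 3 lower and 5 not called, beside 36.2% higher and 40.3% lower of all tested genes. Which RNA the reads over such a row come from was not tested, and for a hairpin in an exon they can be the reads of the host. MIR762 and, in KD, MIR222 held more counts in sum than their hosts. MIR155 had 13, 15 and 18 counts in KD and 6, 7 and 6 counts in NC (log2 fold change 1.38, edgeR adjusted p = 0.0103), and MIR146A had 69, 42 and 70 counts in KD and 17, 24 and 42 counts in NC (log2 fold change 1.25, edgeR adjusted p = 4.54e-04). Both rows moved in the direction of their hosts, as did MIR22 (1.55) among the higher rows and MIR503 (-1.25), MIR4453 (-1.43) and MIR762 (-0.35) among the lower. The row of MIR222 did not, for it was called higher at 0.60 (edgeR adjusted p = 0.00182) where MIR222HG was not called at -0.19. MIR222 lies in an annotated intron of that host and had 213, 321 and 331 counts in KD and 165, 225 and 232 counts in NC, with groups that overlapped in CPM. The row stood at -0.70 on the leukocyte scale. Its neighbour MIR221, in an exon, was not called (-0.07).

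**Figure D4:**
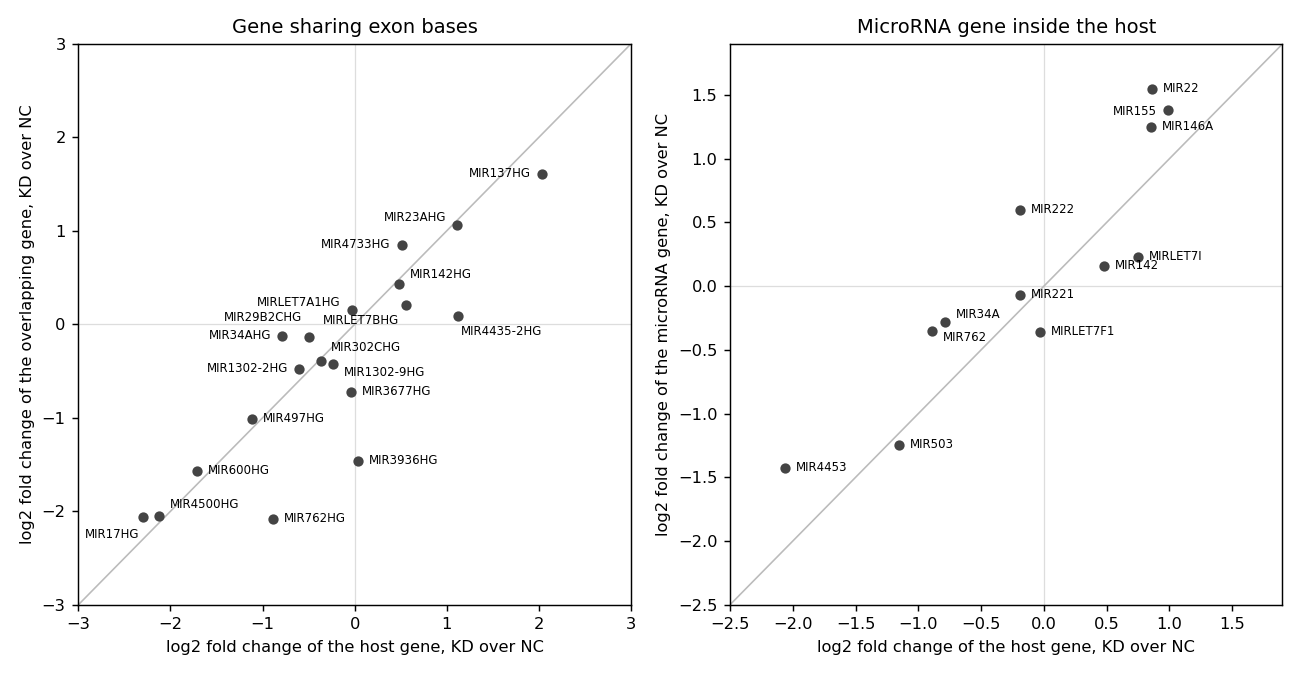
Left, log2 fold change of the tested gene that shares most exon bases with a host (vertical) against that of the host (horizontal), for 19 hosts; right, the same for 12 microRNA genes inside tested hosts. The grey diagonal marks equality; MIR222 at 0.60 lies above the line at a host value of -0.19, and MIR3936HG at 0.04 pairs with SLC22A5 at -1.46. On the leukocyte scale MIR222 is at -0.70.

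A further 45 hosts were not tested. Of these, 11 had no count in any library, 30 had between 1 and 9 counts in their highest library and 4 had 10 or more. Those 4 were MIR365BHG with 4, 14 and 3 counts in KD and 0, 4 and 3 counts in NC, MIR4280HG with 12, 0 and 16 counts in KD and 4, 2 and 4 counts in NC, MIR193BHG with 0, 5 and 2 counts in KD and 4, 10 and 8 counts in NC, and MIR3171HG with 0, 0 and 0 counts in KD and 10, 2 and 4 counts in NC. With no filter on low counts, 34 of the 45 could be fitted and 3 were called, all lower in KD. These were MIR3171HG (edgeR adjusted p = 0.00745), MIR7-3HG (0.0236) with 2, 0 and 0 counts in KD and 5, 8 and 8 counts in NC, and MIR31HG (0.0272). With DESeq2 MIR3171HG was called as well (adjusted p = 0.0169). MIR31HG and MIR7-3HG are named after their values were seen. MIR31HG had 0, 0 and 0 counts in KD and 6, 6 and 0 counts in NC, and it lies at a locus on chromosome 9 that THP-1 cells are known to lack in part, around the tumour suppressor gene CDKN2A. Of 9 genes listed around it, 8 were tested, 7 were lower in KD and none was higher, beside 40.3% lower of all tested genes. CDKN2A had 0, 7 and 6 counts in KD and 1484, 1521 and 1637 counts in NC. MTAP, an enzyme of methionine salvage, had 18, 8 and 8 counts in KD and 863, 927 and 1079 counts in NC, and KLHL9 had 0, 2 and 2 counts in KD and 767, 794 and 860 counts in NC. What these NC counts come from was not tested.

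The machinery that acts on host transcripts was read from a list of 27 genes, of which 26 were tested, 4 were higher in KD, 18 were lower and 4 were not called, with a median log2 fold change of -0.25, beside 36.2% higher and 40.3% lower of all tested genes. In the nuclear step DROSHA was lower (log2 fold change -0.62, SE 0.045, edgeR adjusted p = 4.12e-12), as was its partner DGCR8 (-0.46). XPO5, the export receptor, was lower by the test (-0.22), as was DICER1 (-0.29). AGO2, the slicing Argonaute, had 6700, 6623 and 6761 counts in KD and 3088, 2988 and 3229 counts in NC, and was higher (log2 fold change 1.23, SE 0.040, edgeR adjusted p = 3.44e-19) although it stood at -0.07 on the leukocyte scale. Of the 4 Argonaute genes, 1 was higher, 1 was lower and 2 were not called. LIN28B, which blocks the processing of let-7 precursors, was at 0 in every KD library and had 3783, 3399 and 3910 counts in NC. Of the 4 tested genes listed for let-7 control, 1 was higher in KD and 3 were lower. TUT7, the higher gene, which adds uridines to let-7 precursors, had 33198, 31293 and 29656 counts in KD and 12500, 11254 and 13648 counts in NC. It was higher on the TMM scale by 1.45 and on the leukocyte scale by 0.15 (edgeR adjusted p = 0.0128). On the leukocyte scale it was the only gene of the 27 listed that was called higher and 24 were lower, beside 85.8% lower of all tested genes.

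Of 40 genes listed as hosts under names of another form and present in the data, 35 were tested. Of these, 12 were higher in KD, 16 were lower and 7 were not called, beside 36.2% higher and 40.3% lower of all tested genes, shares that lie near each other. The lower genes include IARS2 (-0.53) and ATP2B3 (-1.17), for which no microRNA gene was found in the span on the same strand. SMC4, a condensin subunit that carries miR-15b and miR-16-2, had 8215, 8107 and 7750 counts in KD and 24317, 22419 and 26769 counts in NC and was lower (log2 fold change -1.49). DLEU2, which carries miR-15a and miR-16-1, was not called (-0.12, edgeR adjusted p = 0.260). NFYC, a transcription factor subunit, was higher by 1.26 but stood at -0.04 on the leukocyte scale. AOPEP carries miR-23b, miR-27b and miR-24-1, whose seeds, UCACAUU for miR-23, UCACAGU for miR-27 and GGCUCAG for miR-24, are those of the MIR23AHG cluster. It had 42, 31 and 50 counts in KD and 157, 131 and 133 counts in NC and was lower (log2 fold change -1.65, edgeR adjusted p = 3.97e-08), while MIR23AHG was higher by 1.11 on the TMM scale and stood at -0.19 on the leukocyte scale. DLEU2 and AOPEP were chosen after their values were seen.

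Of 20 transcription factors known to act on host genes, 15 were higher in KD and 5 were lower, beside 36.2% higher and 40.3% lower of all tested genes. None was higher and 16 were lower on the leukocyte scale, beside 85.8% lower of all tested genes. REL, a subunit of NF-kappaB, was higher by 1.28 on the TMM scale and stood at -0.02 on the leukocyte scale. HIF1A, the hypoxia factor linked to MIR210HG, was higher by 1.35, with 0.04 on the leukocyte scale (edgeR adjusted p = 0.350). E2F3, a cell cycle factor, had 726, 705 and 738 counts in KD and 1965, 1978 and 2282 counts in NC. It was lower by the test (-1.40 with TMM) and stood at -2.70 on the leukocyte scale, below that scale's median. Its relatives E2F1 (-1.33) and E2F2 (-3.24), named after their values were seen, were lower too. MYCN, also named after its values were seen, was at 0 in every KD library and had 48, 68 and 66 counts in NC. Its relative MYC, named after its values were seen as well, went the other way. MYC was higher by 0.31 (edgeR adjusted p = 4.49e-06) with -0.99 on the leukocyte scale.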

How the data were processed

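The authors deposited raw counts of 61267 genes in 6 libraries as whole numbers, beside the exon coordinates of each gene on GRCh38. Reads were trimmed with fastp 0.23.0, per the submitters' processing notes. The aligner, counting program, annotation release and strand setting were not given in the sources used here. Groups follow the labels. No libraries of a group were identical or agreed within sampling noise.

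The groups were compared by the quasi-likelihood test of edgeR 4.0.16 under R 4.3.3 (robust, TMM, filterByExpr, no covariate) on all genes, two-sided, with Benjamini-Hochberg adjustment over the 21905 tested genes and a threshold of 0.05. The common biological coefficient of variation was 0.0499. Standard errors divide the log2 fold change by the root of F. CPM use the TMM-scaled library size unless library size is named. The procedure was tested on simulated data. Alternatives were DESeq2 1.42.0, other scalings and filters, halved counts, a replicate block, a threshold of 0.01 and leaving out each library.

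The host genes, lists and scales were chosen with earlier results of these data known. Tested hosts are named with their counts, with full statistics for a mean of 100 counts or more in a group, a listed role, or the 5 largest changes each way; from other lists up to 3 called genes with the smallest p are named, and DROSHA, DGCR8, DICER1, XPO5, AGO2 and LIN28B. Untested hosts are named at 10 counts or more. The values of 1 listed transcription factor are not reported here.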

Additional observations from a re-analysis of the deposited data

How the results depend on the processing

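Of the 32 host genes called, 29 kept their direction and call under every alternative run except the leukocyte scale, among those in which they could be tested; MIR1302-2HG, MIR4733HG and MIRLET7BHG did not. The leukocyte scale gave 1 host gene higher and 31 lower, and 515 of all genes higher and 18797 lower; all genes gave 6212 higher and 10369 lower with library sizes alone, 37.5% of calls higher beside 47.3% with TMM. METTL1 stood at -1.41 on the leukocyte scale (edgeR adjusted p = 2.28e-15) and at -0.29 with library sizes alone (edgeR adjusted p = 0.00249). Signs changed on the leukocyte scale, where the median of all genes is -1.35 and each of these hosts lay above it, to log2 fold changes of -0.56 for MIRLET7IHG, -0.44 for MIR22HG, -0.79 for MIR4733HG, -0.82 for MIR142HG, -0.19 for MIR23AHG, -0.18 for MIR4435-2HG, -0.31 for MIR155HG, -0.74 for MIRLET7BHG, -1.26 for MIR3936HG, -0.46 for MIR3142HG and -0.20 for MIR124-1HG. MIR3936HG also turned with library sizes alone (-0.15). With 1 library left out, the log2 fold changes of the 7 hosts without a call ranged from -0.56 to -0.06 for MIR1302-9HG, -0.31 to -0.04 for MIR222HG, -0.12 to 0.09 for MIR3677HG, -0.41 to 0.31 for MIR3945HG, -0.30 to 0.37 for MIR3936HG, -0.36 to 0.11 for MIR2052HG and -0.11 to 0.12 for MIRLET7A1HG. With DESeq2 the calls of MIR1302-2HG (adjusted p = 0.152), MIR4733HG (0.0877) and MIRLET7BHG (0.140) were lost; the cause was not tested. With a replicate block, 14 host genes were higher and 17 lower, and MIRLET7BHG lost its call (edgeR adjusted p = 0.0541). Same-numbered libraries did not deviate together (correlations 0.036, 0.024 and -0.078). Such values cannot exclude that samples were prepared in pairs. Halved counts left MIR210HG and MIR3945HG untested, and a mean of at least 1 CPM left 29 host genes. With no filter, 19 host genes were lower, 3 of them untested otherwise.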
